A study of Mus musculus with 15 samples.

Results

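The E proteins and their Id inhibitors were followed as 6 genes: Tcf3, Tcf12 and Tcf4, which encode E proteins, and Id1, Id2 and Id3, which encode the inhibitors. The members were chosen by name. Each of the 6 symbols matched 1 gene identifier, so the family made up 6 of the 51912 rows of the expression table. All 6 passed the filter on low counts, as did 15692 genes in all.

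E proteins are basic helix-loop-helix transcription factors that bind E-box motifs in DNA as dimers, with themselves or with tissue-restricted partners. Id proteins have a helix-loop-helix but no basic region, so an E protein paired with an Id protein cannot bind DNA. In B cells the E proteins are known for driving B lineage commitment, germinal centre programmes and antibody secretion, and Id2 and Id3 are known for restraining them.

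The libraries were polyA RNA-seq profiles of wild-type mouse B cells, with no genotype change and no agent named beyond the culture itself. Cells were expanded on 40LB cells, a feeder line that supports B cells, in medium with 100 ng/ml IL-4, and an unsorted bulk sample (D6) was taken at day 6. All other cells were moved off the feeders, kept for 2 days without stimulation and sorted into 4 subsets: IgE or IgG1 cells that had become plasma cells (IgE PC, IgG1 PC), and IgE or IgG1 cells named iGC in the labels (IgE iGC, IgG1 iGC). Each of the 5 groups held 3 biological replicates, which the design text calls independent. The labels do not name the animals or cultures behind them, so the p-values measure the spread between these libraries.

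Deposited counts summed to between 17.7 M and 54.1 M per library. Plasma cell markers (Sdc1, Prdm1, Xbp1, Irf4, Jchain and Tnfrsf17) summed to at least 6330 TPM (RSEM's length-scaled share of transcripts) in every PC library and at most 679 TPM elsewhere. Jchain made up most of the PC sums, at 4920 TPM or more. Each of the other markers was also higher in every PC library than in any library of the other groups. B cell markers were present in all groups. The germinal centre regulator gene Bcl6 was at 42.2 to 57.0 TPM in iGC libraries, 28.3 to 36.6 TPM in D6 and 4.35 to 6.75 TPM in PC libraries. IgG1 PC replicates stood further apart than those of other groups, with a chi-square per degree of freedom of 30.6 to 105 against 4.82 to 26.1. IgG1 PC replicate 1 took part in both of the widest pairs. Each library pools many cells, so fewer cells with a transcript and less transcript per cell cannot be told apart. No other annotated gene overlapped the exons of the 6 genes, and all their counts were whole numbers, so no reads of theirs were divided among genes.

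E proteins and Id proteins both hold a helix-loop-helix (the 2 kinds of gene were searched apart), and the most alike stretch is shown for each kind. For the Id genes, a window of 40 codons was chosen by the highest summed similarity of the encoded residues, scanned from Id2. Its 120 coding bases lay in the first exon of each gene: Id1 at chr2:152736521-152736640 on the forward strand, Id2 at chr12:25095780-25095899 on the reverse strand and Id3 at chr4:136144005-136144124 on the forward strand (GRCm38, GENCODE vM21). The sequences are printed along the gene, 5′ to 3′, and capitals mark the bases that are the same in all 3 genes.
Id1: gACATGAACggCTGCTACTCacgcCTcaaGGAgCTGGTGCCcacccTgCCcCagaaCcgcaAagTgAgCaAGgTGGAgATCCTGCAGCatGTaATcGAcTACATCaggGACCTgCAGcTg
Id2: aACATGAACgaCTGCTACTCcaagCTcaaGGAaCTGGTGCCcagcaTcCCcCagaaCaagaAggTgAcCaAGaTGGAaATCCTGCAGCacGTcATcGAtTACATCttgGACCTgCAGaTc
Id3: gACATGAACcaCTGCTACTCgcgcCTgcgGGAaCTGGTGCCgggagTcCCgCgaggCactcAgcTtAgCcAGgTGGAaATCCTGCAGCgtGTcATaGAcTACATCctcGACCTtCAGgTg
Of the 120 bases, 76 (63.3%) were shared by all 3 genes, and 23 of the 40 codons gave the same residue in all 3. Id1 and Id2 were the most alike at 80.0% of bases, against 70.8% for Id3 with either.

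For the E proteins the same search was run between Tcf3 and Tcf12, and it found a stretch within the basic helix-loop-helix region. The window lay in exon 18 of the Tcf3 transcript used, at chr10:80412870-80412989, and in exon 19 of the Tcf12 transcript, at chr9:71856348-71856467. Both are on the reverse strand (GRCm38, GENCODE vM21). Capitals mark the bases that are the same in both genes.
Tcf3: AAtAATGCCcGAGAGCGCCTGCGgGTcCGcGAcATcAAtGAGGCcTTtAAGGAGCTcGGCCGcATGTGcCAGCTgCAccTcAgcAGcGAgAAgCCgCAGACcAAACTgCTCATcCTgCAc
Tcf12: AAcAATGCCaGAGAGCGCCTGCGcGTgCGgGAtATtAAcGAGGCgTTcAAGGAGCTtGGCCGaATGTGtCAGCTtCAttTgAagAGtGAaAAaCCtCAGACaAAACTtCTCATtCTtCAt
Here 92 of 120 bases (76.7%) matched and 39 of 40 codons gave the same residue. The lower-case letters outside that 1 differing codon leave the residue the same. Tcf4 was not included in the sequence comparison.

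The E protein transcripts were abundant and varied little beside the Id transcripts, which were scarcer and moved widely. Per length, Tcf3 stood at group means of 99.7 to 184 TPM and Tcf4 at 61.9 to 126 TPM, and Tcf12 at 33.8 to 42.6 TPM. Id3 ranged from 5.51 to 68.3 TPM, Id2 from 0.453 to 7.78 TPM and Id1 from 0.677 to 3.25 TPM. Id3 was thus the most abundant inhibitor transcript in every group. The levels by library below are in CPM, counts relative to the library size scaled by TMM, the unit in which groups were compared gene by gene. Fold changes are from edgeR's quasi-likelihood test, with p-values adjusted by Benjamini-Hochberg over all genes tested and an adjusted p under 0.05 taken as called.

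**Figure D1:**
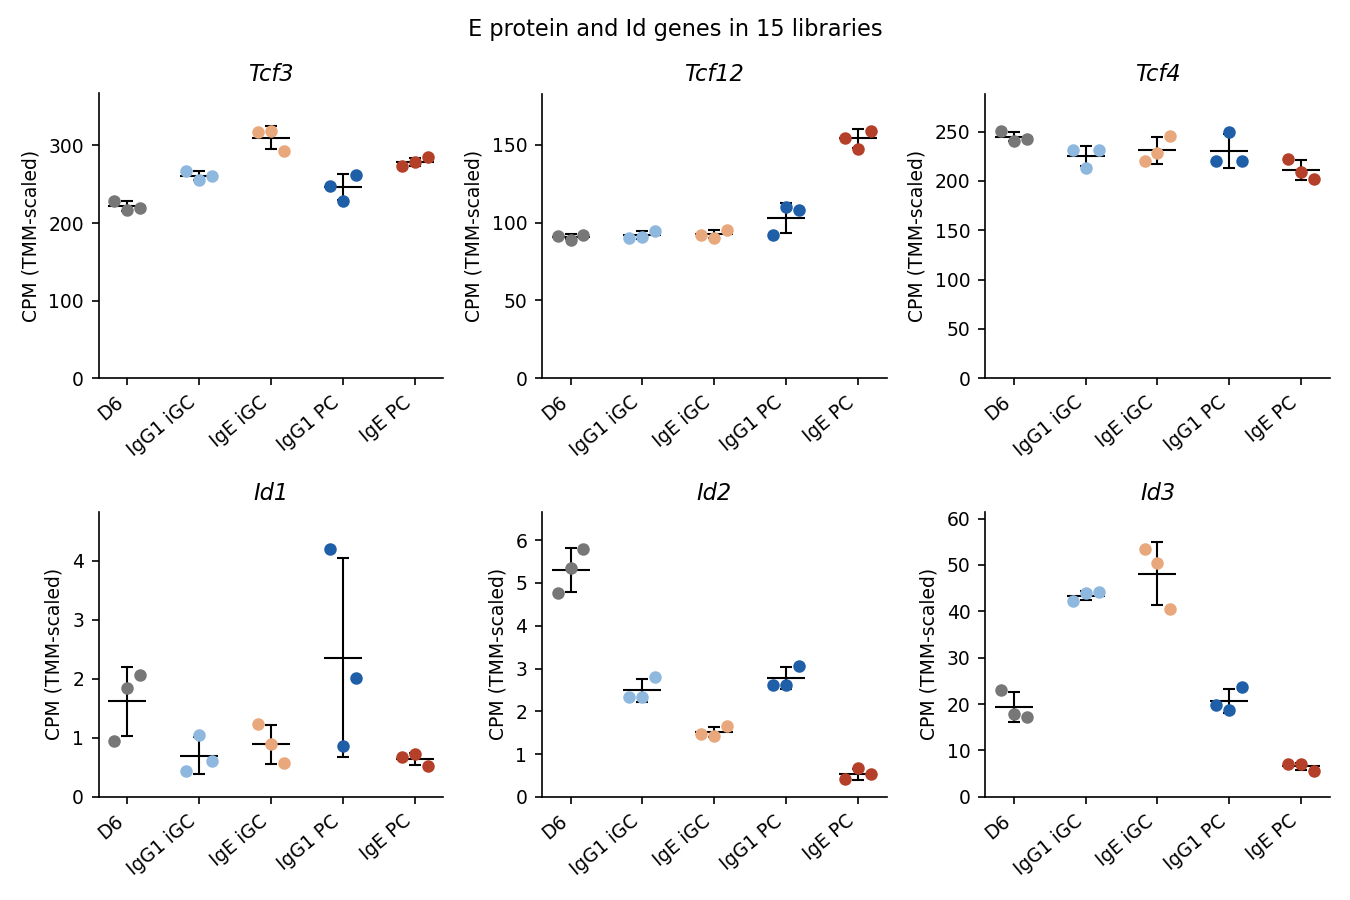
Level of each gene in the 15 libraries, in TMM-scaled CPM on linear axes that start at 0; points are libraries and bars the mean ± SD of 3 replicates. Id2 and Id3 in IgE PC lie below every library of the other groups, Tcf12 in IgE PC lies above them, and Id1 in IgG1 PC is spread by replicate 1 at 4.2 CPM.

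Tcf3 encodes E12 and E47, the E proteins best known in the B lineage; gene-level counts do not separate these splice forms. It was at 229, 217 and 219 CPM in D6, at 267, 256 and 260 CPM in IgG1 iGC, and at 317, 319 and 293 CPM in IgE iGC. In plasma cells it was at 248, 229 and 262 CPM for IgG1 and at 274, 278 and 285 CPM for IgE. IgE iGC was therefore highest and IgE PC next, and the ranges of these neighbours did not overlap; from IgG1 iGC down to IgG1 PC and D6 neighbouring ranges overlapped.

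Tcf3 was higher in IgE than in IgG1 cells within each stage, although total-count scaling turned the PC difference to -0.07, beside a median of -0.30 over all genes. The log2 fold change of IgE against IgG1 was 0.25 in iGC cells (SE 0.06; edgeR adjusted p = 0.0207) and 0.18 in PC (SE 0.06; adjusted p = 0.0131). The PC call was also lost with only those groups fitted (0.17) and with limma on log2(TPM + 1) at 0.01, and the iGC call with that limma fit (0.21). The iGC call was lost when any 1 of 5 of the 6 iGC libraries was left out. From iGC to PC, Tcf3 fell by 0.15 in IgE (SE 0.06; adjusted p = 0.0294), a call lost without any 1 of 5 libraries and when immunoglobulin rows were left out (-0.11). Under total-count scaling the IgE change was -0.62 (adjusted p = 2.31e-07), beside a median of -0.55. In IgG1 the change was -0.08 (adjusted p = 0.226). It was called at -0.31 under total-count scaling (adjusted p = 0.000377) and at -0.67 by limma on log2(TPM + 1) (adjusted p = 3.73e-06), beside medians of -0.22 and -0.42.

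Tcf12 encodes HEB, an E protein that acts beside E2A. Its levels were 91.5, 89.0 and 91.9 CPM in D6, 90.0, 90.9 and 94.8 CPM in IgG1 iGC, and 92.0, 90.3 and 95.4 CPM in IgE iGC. These 3 groups could not be told apart. IgG1 PC held 92.3, 110 and 108 CPM, overlapping the iGC range through replicate 1, and IgE PC held 154, 147 and 159 CPM, above every other library.

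Tcf12 was 1.48-fold higher in IgE PC than in IgG1 PC (log2 0.57, SE 0.06; edgeR adjusted p = 1.61e-06), which limma on log2(TPM + 1) put at 0.29 and did not call. It was 1.66-fold higher in IgE PC than in IgE iGC (log2 0.73, SE 0.06; adjusted p = 4.16e-08). In IgG1 it rose by 0.17 from iGC to PC (adjusted p = 0.0257), which total-count scaling turned to -0.06 and which was lost without IgG1 PC replicate 2 (0.11, adjusted p = 0.125), among others. By edgeR with TMM scaling the rise was larger in IgE, with a difference between isotypes of 0.56 (SE 0.09, edgeR adjusted p = 0.000138). Limma on log2(TPM + 1) put this difference at 0.32 and did not call it (limma adjusted p = 0.32). Measured as TPM, which RSEM scales by the length of the transcript forms it assigns, Tcf12 was 41.3 ± 5.03 in IgE iGC and 40.2 ± 0.207 in IgE PC (SD, n = 3 each), and limma on log2(TPM + 1) gave -0.03 beside a median of -0.49 over all genes. Under total-count scaling the change was 0.26 beside a median of -0.55. No rise was called on the TPM scale (limma adjusted p = 0.864).

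Tcf4 encodes E2-2, the E protein known for plasmacytoid dendritic cells and also used by plasma cells. It was at 251, 241 and 243 CPM in D6, 231, 213 and 231 CPM in IgG1 iGC, and 220, 228 and 246 CPM in IgE iGC. IgG1 PC held 220, 250 and 220 CPM and IgE PC 222, 209 and 202 CPM. Every pair of neighbours in the order of means overlapped.

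Tcf4 was not called between isotypes or between stages by edgeR with TMM scaling, and it was called lower in these comparisons under total-count scaling and by limma on log2(TPM + 1), the iGC groups apart. Its log2 fold change was -0.12 in IgE PC against IgG1 PC (SE 0.06; edgeR adjusted p = 0.113) and -0.13 from IgE iGC to IgE PC (adjusted p = 0.0881). Total-count scaling gave -0.38 and -0.60 and made both calls, beside medians over all genes of -0.30 and -0.55. From IgG1 iGC to IgG1 PC the change was 0.03, and -0.20 under total-count scaling (adjusted p = 0.0311), beside a median of -0.22. Limma on log2(TPM + 1) called -0.44 in IgE PC against IgG1 PC (adjusted p = 0.00256), beside a median of -0.11 over all genes. It called -0.83 from IgE iGC to IgE PC (adjusted p = 2.78e-06) and -0.46 from IgG1 iGC to IgG1 PC (adjusted p = 0.000766), beside medians of -0.49 and -0.42. Of 6 markers of plasmacytoid dendritic cells, Siglech stayed at or below 0.26 TPM, Ccr9 at or below 0.03 TPM, Klk1 at or below 0.06 TPM and Lair1 at or below 1.4 TPM, and Cd209d was listed at 0 in all libraries. Flt3, which early lymphoid cells also carry, was at 40.6 to 43.1 TPM in IgG1 iGC, 19.1 to 21.9 TPM in IgE iGC, at least 9.31 TPM in D6, 8.37 to 15.3 TPM in IgG1 PC and 2.24 to 2.49 TPM in IgE PC. Its part in the Tcf4 levels was not tested.

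Id3 is the inhibitor known for holding back E proteins in B cells after receptor signals. It was at 23.1, 17.8 and 17.2 CPM in D6 and rose in both iGC groups, to 42.3, 43.9 and 44.1 CPM in IgG1 and 53.4, 50.4 and 40.4 CPM in IgE. In plasma cells it was at 19.7, 18.7 and 23.7 CPM for IgG1 and only 7.05, 6.98 and 5.65 CPM for IgE. The iGC groups overlapped each other, IgG1 PC overlapped D6, and IgE PC lay below all of them.

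From iGC to PC, Id3 fell by 2.87 on the log2 scale in IgE (SE 0.14; edgeR adjusted p = 7.12e-11), a 7.33-fold drop, and only 3.01% of all genes tested had a lower fold change. In IgG1 it fell by 1.07 (SE 0.13; adjusted p = 4.35e-06), a 2.09-fold drop. The fall was 3.5 times deeper in IgE, with a difference of -1.81 (SE 0.19; adjusted p = 3.23e-06). Id3 was 3.15-fold lower in IgE PC than in IgG1 PC (log2 -1.66, SE 0.14; adjusted p = 1.34e-07), and the iGC groups did not differ by the test (0.15, adjusted p = 0.662). Leaving out IgG1 PC replicate 1 gave -1.69 for the PC comparison and -1.84 for the difference of falls.

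Id2 is the inhibitor best known in natural killer and innate lymphoid cells, and in B cells it restrains switching to IgE. It was highest in D6 at 4.77, 5.36 and 5.79 CPM. IgG1 iGC held 2.33, 2.34 and 2.81 CPM, IgG1 PC 2.62, 2.62 and 3.07 CPM, and IgE iGC 1.48, 1.42 and 1.65 CPM. In IgE PC it was at 0.406, 0.663 and 0.523 CPM, which rest on 14, 21 and 15 counts. The order D6, IgG1 PC with IgG1 iGC, IgE iGC and IgE PC had gaps between all neighbours except the IgG1 pair.

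Id2 was lower in IgE than in IgG1 cells at both stages. It was 5.22-fold lower in IgE PC (log2 -2.38, SE 0.19; edgeR adjusted p = 6.88e-08), where 4.63% of genes lay lower, and 1.65-fold lower in IgE iGC (log2 -0.72, SE 0.17; adjusted p = 0.0261). The iGC call was lost without any 1 of 5 of the 6 iGC libraries, with log2 values between -0.78 and -0.63 over all 6. In IgG1 cells Id2 showed no called change from iGC to PC (0.16, SE 0.16; adjusted p = 0.427), and in IgE cells it fell by 1.50 (SE 0.20; adjusted p = 7.75e-06). The difference between these changes was -1.66 (SE 0.26; adjusted p = 0.000133).

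Id1 is the inhibitor known as a target of bone morphogenetic protein signals, and it was at the edge of detection. It was at 0.953, 1.85 and 2.06 CPM in D6, 0.441, 1.05 and 0.608 CPM in IgG1 iGC, and 1.23, 0.889 and 0.568 CPM in IgE iGC. IgG1 PC held 4.2, 0.869 and 2.01 CPM and IgE PC 0.668, 0.726 and 0.523 CPM. All neighbouring groups overlapped, and the library of IgG1 PC replicate 1 was the highest of the 15.

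Id1 was called 3.59-fold lower in IgE PC than in IgG1 PC (log2 -1.84, SE 0.51; edgeR adjusted p = 0.00631), and -1.16 without IgG1 PC replicate 1 (adjusted p = 0.0357). It rose by 1.72 from IgG1 iGC to IgG1 PC (SE 0.50; adjusted p = 0.00815), which became 1.04 without that library (adjusted p = 0.0548). In IgE the change was -0.53 (adjusted p = 0.409). The difference between isotypes, -2.25 (SE 0.73; adjusted p = 0.0221), was -1.57 without IgG1 PC replicate 1 (adjusted p = 0.0472) and lost its call without IgG1 iGC replicate 1, IgE iGC replicate 1 or IgE PC replicate 3.

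Fibroblast transcripts, which 40LB feeder cells can carry, are given beside Id1. A list of 12 fibroblast markers summed to 150, 204 and 198 TPM in D6, to 25.9 to 37.3 TPM in IgG1 iGC and 30.6 to 39.4 TPM in IgE iGC. The sums were 50.2, 29.1 and 60.1 TPM in IgG1 PC and 10.3, 9.62 and 6.72 TPM in IgE PC. Within IgG1 PC the 2 libraries with more Id1 were those with the larger sums, and the IgE PC libraries were low in both. The order of the groups was not the same: mean Id1 was highest in IgG1 PC at 2.36 CPM and the sums were highest in D6, where Id1 was at 1.62 CPM. Mean Id1 was 0.699 CPM in IgG1 iGC and 0.639 CPM in IgE PC, while every IgG1 iGC sum was above every IgE PC sum. Of the 12 markers, 10 reached 1 TPM in all D6 libraries and 3 in all IgE PC libraries; Postn was at or below 0.02 TPM throughout and Pdgfrb at or below 0.13 TPM. The part of the feeder cells in the Id1 levels was not tested, nor was it for Id2, which like the sums was highest in D6 and lowest in IgE PC.

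**Figure D2:**
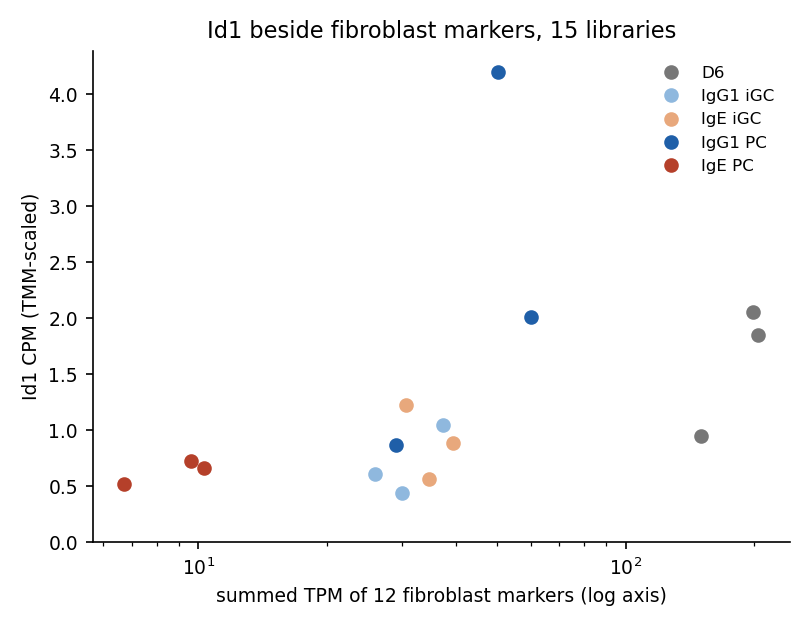
Id1 in TMM-scaled CPM against the summed TPM of the 12 fibroblast markers on a log axis; each point is 1 of the 15 libraries, coloured by group. The 3 IgE PC libraries sit at the low end of both axes, D6 at the high end of the marker sum, and IgG1 PC replicate 1 stands at 4.2 CPM with a sum of 50.2 TPM.

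Id4, the remaining Id gene, had 0 to 2 counts per library and 5 counts in all, and fell below the filter.

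Between IgE PC and IgG1 PC, 5 of the 6 genes were called, where 58.1% of all genes tested were called. The 3 Id genes were lower (30.7% of all genes) and Tcf12 and Tcf3 higher (27.4% of all genes), although Tcf3 turned to -0.07 under total-count scaling. The Id genes stood at -1.66 to -2.38 on the log2 scale and the E protein genes between -0.12 and 0.57. Genes called lower by 2-fold or more, as the 3 Id genes were, made up 14.0% of those tested. The members called numbered 4 to 6 with single libraries left out, and 6 without IgG1 PC replicate 1, where Tcf4 was called at -0.15 (edgeR adjusted p = 0.048). Between the iGC groups 2 of 6 were called, Tcf3 higher and Id2 lower in IgE, where 3.87% of genes were called.

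From iGC to PC, 4 of the 6 genes were called in IgE (64.1% of all genes) and 3 of 6 in IgG1 (59.1% of all genes). Id3 fell in both isotypes. Tcf12 rose in both by edgeR with TMM scaling, although under total-count scaling its change in IgG1 was -0.06. Limma on log2(TPM + 1) gave Tcf12 -0.03 in IgE and -0.36 in IgG1 and called neither. The edgeR call of Tcf12 in IgG1 was lost in 4 of the 6 fits with a single library left out. The change differed between isotypes for Id1, Id2, Id3 and Tcf12, 4 of 6 genes where 42.9% of all genes differed. Limma on log2(TPM + 1) did not call the Tcf12 difference (0.32, limma adjusted p = 0.32). For Tcf3 and Tcf4 the difference was -0.07 (SE 0.08) and -0.16 (SE 0.09), not past the test, although total-count scaling gave -0.31 and -0.40 with adjusted p-values of 0.00947 and 0.00733 beside a median of -0.30.

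**Figure D3:**
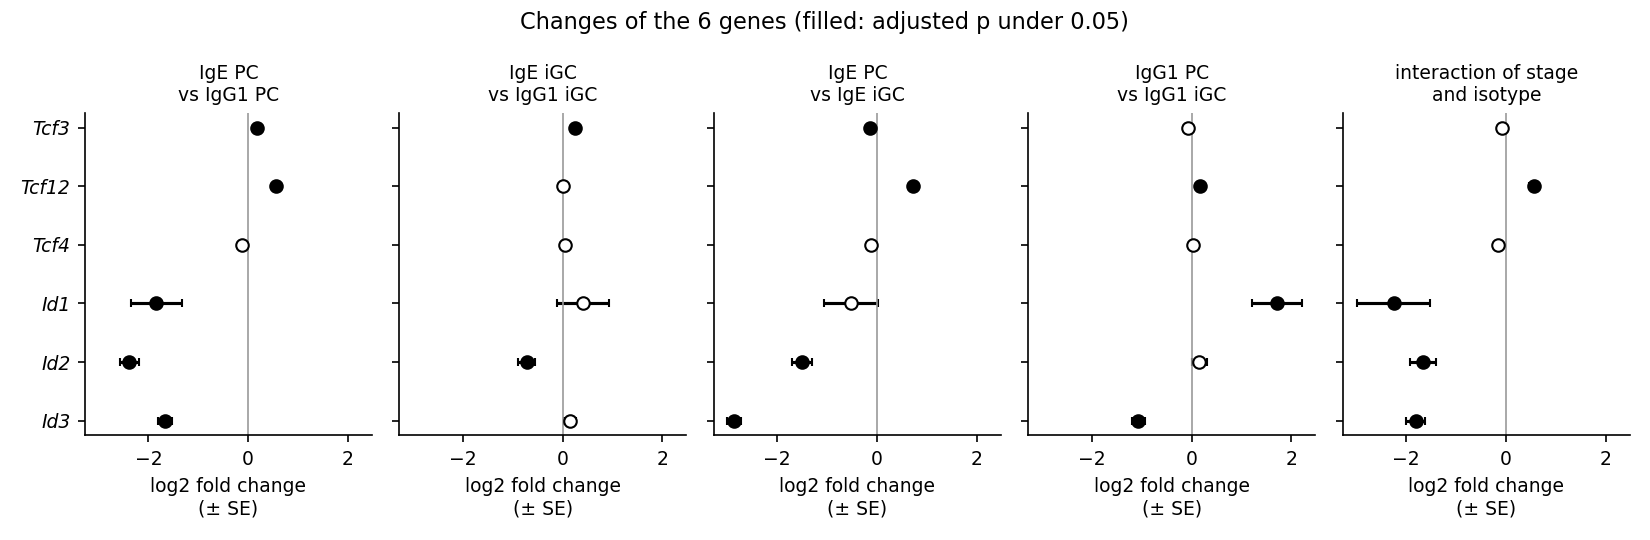
Log2 fold change ± SE of the 6 genes in the 4 comparisons of sorted cells and in the difference of the iGC to PC change between isotypes (interaction of stage and isotype); filled points passed an adjusted p of 0.05. The E protein genes stay within 0.73 of 0 in every panel, and Id1, Id2 and Id3 lie furthest to the left between the plasma cell groups and in the interaction.

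Against D6, which all 4 of the next comparisons share, Id2 was lower in each sorted group. Its log2 fold change was -1.09 in IgG1 iGC (SE 0.16), -1.81 in IgE iGC (SE 0.17), -0.93 in IgG1 PC (SE 0.16) and -3.32 in IgE PC (SE 0.19). The last is a 9.96-fold drop. Id3 was higher in IgG1 iGC at 1.17 (SE 0.13) and in IgE iGC at 1.32 (SE 0.13), lower in IgE PC at -1.56 (SE 0.14), and not called in IgG1 PC at 0.10 (edgeR adjusted p = 0.501). Tcf3 was higher in all 4, from 0.15 in IgG1 PC to 0.48 in IgE iGC, but total-count scaling turned it to -0.13 in IgG1 PC and -0.20 in IgE PC, beside medians of -0.27 and -0.57. Tcf12 was higher in IgE PC at 0.76 (SE 0.06) and in IgG1 PC at 0.19, where total-count scaling gave -0.09, and in limma on log2(TPM + 1) it was at -0.08 and -0.37. Tcf4 was called in IgE PC alone, at -0.22 (SE 0.06), a call lost when immunoglobulin rows were left out. Id1 was called lower in IgG1 iGC at -1.21 (adjusted p = 0.0436) and IgE PC at -1.33 (adjusted p = 0.0285), and each call was lost without any of several single libraries. In all, 4 of 6 genes were called in IgG1 iGC (68.4% of all genes), 3 in IgE iGC (69.1%), 3 in IgG1 PC (71.9%) and 6 in IgE PC (76.4%).

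The balance of the family was described by dividing the summed TPM of Id1, Id2 and Id3 by that of Tcf3, Tcf12 and Tcf4 in each library. It is a ratio of transcripts, with no test. It was 0.136, 0.127 and 0.123 in D6, 0.199, 0.219 and 0.221 in IgG1 iGC, and 0.235, 0.223 and 0.185 in IgE iGC. In plasma cells it was 0.122, 0.0968 and 0.116 for IgG1 and 0.0349, 0.0353 and 0.0283 for IgE. The iGC groups overlapped and were highest, and IgE PC lay below every other library.

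In IgE PC the mean ratio was 0.0328 ± 0.00393 (SD, n = 3), 6.53 times lower than in IgE iGC at 0.214 ± 0.0261. In IgG1 PC it was 0.112 ± 0.0132, 1.91 times lower than in IgG1 iGC at 0.213 ± 0.0122. Both sums were lower in PC in TPM, a scale on which the median gene also fell. Limma on log2(TPM + 1) gave medians over all genes from iGC to PC of -0.49 in IgE and -0.42 in IgG1. In CPM with TMM scaling, edgeR called Tcf12 higher in both isotypes (0.73 and 0.17), Tcf3 lower in IgE alone (-0.15) and Tcf4 in neither. Id3 was called lower in both, at -2.87 in IgE and -1.07 in IgG1. The summed E protein TPM of IgE cells was 336 ± 5.2 at the iGC stage and 202 ± 4.58 at the PC stage. That of IgG1 cells was 317 ± 5.51 and 219 ± 38.0. The summed Id TPM was 72.0 ± 8.2 and 6.64 ± 0.928 for IgE, and 67.5 ± 2.7 and 24.3 ± 4.13 for IgG1. Immunoglobulin transcripts took 15.3% to 21.7% of counts in PC libraries and 1.39% to 1.62% elsewhere, which lowers the TPM of every other gene in a library by the same factor and leaves the ratio as it is.

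The make-up of each sum also differed. Id3 supplied 94.9% ± 0.436 of Id TPM in IgE iGC and 93.2% ± 0.681 in IgG1 iGC, against 72.3% ± 6.41 in D6, where Id2 supplied 19.5% ± 3.13 (n = 3 each). On the E protein side Tcf12 supplied 19.9% ± 0.436 in IgE PC and 12.3% ± 1.39 in IgE iGC. Tcf4 supplied 30.7% ± 0.85 in IgE PC and 40.5% ± 0.503 in D6. Tcf3 was the largest E protein part in every library, at 43.4% to 56.1%.

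**Figure D4:**
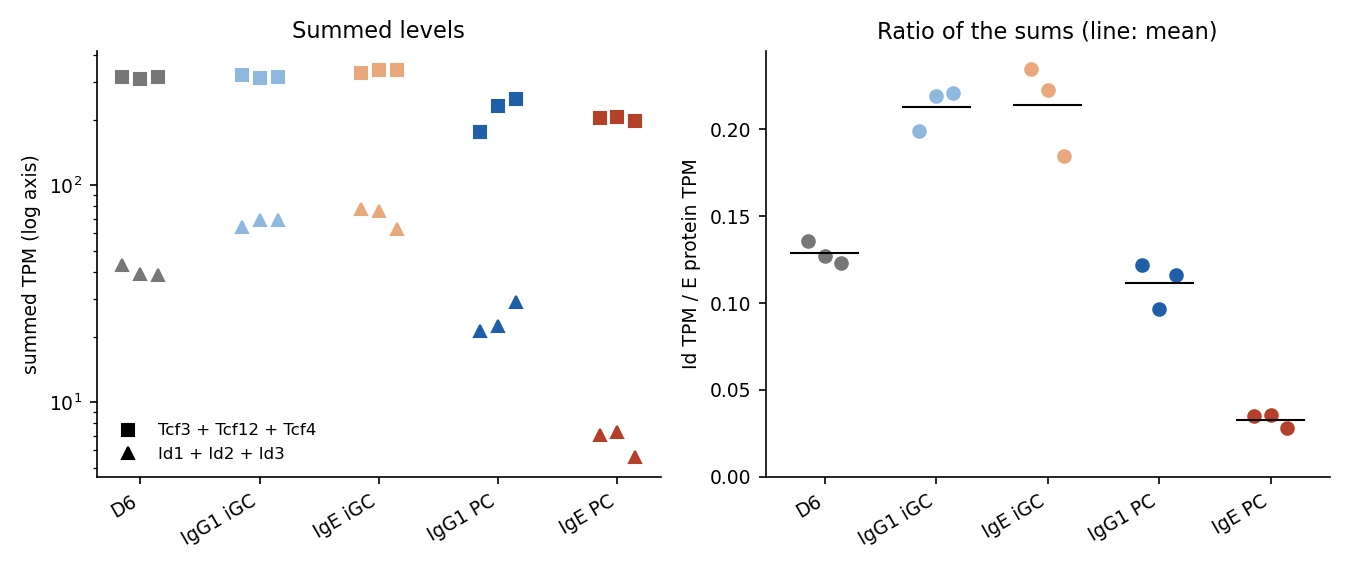
Left, summed TPM of the 3 E protein genes (squares) and of the 3 Id genes (triangles) in each library on a log axis; right, the Id sum divided by the E protein sum, with the group mean as a line. The ratio is 0.185 to 0.235 in iGC libraries and 0.0283 to 0.0353 in IgE PC.

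Across the 15 libraries, which share the 5 groups and are not independent points, log2 CPM of Tcf12 ran against Id3 (Pearson r = -0.856) and Id2 (r = -0.813). Other E protein and Id pairs did not all run that way. Tcf3 was at -0.693 with Id2 but 0.206 with Id3, and Tcf4 was at 0.666 with Id2 and 0.346 with Id3. With Id1, r was -0.418 for Tcf3, -0.37 for Tcf12 and 0.0557 for Tcf4. The 3 E protein genes did not run together: r was 0.228 for Tcf3 with Tcf12, -0.52 for Tcf3 with Tcf4 and -0.554 for Tcf12 with Tcf4. Nor did the inhibitors, at 0.486 for Id2 with Id3, 0.518 for Id1 with Id2 and 0.029 for Id1 with Id3. These values are descriptions of how group means line up.

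The genes whose log2 CPM followed each member most closely were picked out of 9423 candidates over the same 15 libraries. Id3 was followed by Sh3bgrl3 (r = 0.992), Grap (0.991) and Pfn1 (0.99, the actin-binding profilin), which like Id3 were lowest in IgE PC. Id2 was followed by Ccl22 (r = 0.989), Dact3 (0.981) and Fam20c (0.979). Ccl22, a chemokine that attracts T cells, went from 900 TPM in D6 to 187 in IgG1 iGC, 54.2 in IgE iGC, 119 in IgG1 PC and 2.71 in IgE PC, on average.

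Id1 was followed by the chemokine gene Ccl2 (r = 0.953), by Ap1s1 (0.925) and by the complement gene C3 (0.9). Tcf12 was followed by the ubiquitin ligase genes Ubr2 (r = 0.992) and Itch (0.991) and by Piga (0.988). Tcf3 was followed by Gcsam (r = 0.954), a germinal centre transcript that stood at 28.2 TPM in IgE iGC and 0.873 TPM in D6, and by Pip4k2c (0.948) and Vasp (0.925). The closest genes to Tcf4 were Alg13 (r = 0.816), Emc1 (0.802) and Tefm (0.797), the loosest likeness of the 6.

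Tissue-restricted basic helix-loop-helix genes supply the partners of E proteins. Of 20 such genes 5 passed the filter (Bhlha15, Atoh8, Lyl1, Twist1 and Twist2). Bhlha15, which encodes MIST1 of secretory cells, stood at 23.1 ± 0.804 CPM in D6, 0.795 ± 0.24 in IgG1 iGC, 2.64 ± 0.512 in IgE iGC, 192 ± 42.4 in IgG1 PC and 314 ± 4.46 in IgE PC (SD, n = 3 each). It was higher in IgE than in IgG1 cells in iGC (log2 1.74, SE 0.26; edgeR adjusted p = 0.000942) and in PC (0.71, SE 0.13; adjusted p = 0.000193). Lyl1, a partner known from blood progenitors, fell from iGC to PC by 0.79 in IgE (SE 0.06) and 0.50 in IgG1 (SE 0.06). Atoh8 rose by 3.54 in IgE and 3.42 in IgG1. Twist1 and Twist2, known from mesenchymal cells, were at most 0.424 and 1.3 CPM on average and highest in D6, as the fibroblast markers were. Between the PC groups 1 partner was called higher and 3 lower in IgE, with a median of -0.25 over the 5 beside -0.05 over all genes; the split was the same under total-count scaling, and 58.1% of all genes were called.

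Cofactors of E protein complexes moved in both directions. Of 16 genes 14 were tested. From iGC to PC, 5 rose and 8 fell in IgE (median -0.37, all genes -0.08), and 4 rose and 8 fell in IgG1 (median -0.32, all genes 0.01); under total-count scaling 2 rose and 8 fell in IgE and 2 rose and 9 fell in IgG1. Of all genes, 64.1% were called in IgE and 59.1% in IgG1. Lmo2, a bridging protein, fell by 2.76 in IgE (SE 0.09) and 1.50 in IgG1 (SE 0.09), and the deacetylase gene Hdac1 fell by 1.38 and 0.65 (SE 0.05 each). Lmo4 rose by 2.01 in IgE (SE 0.12) and the acetyltransferase gene Kat2b by 0.74 (SE 0.07). In mean TPM, Lmo4 went from 20.5 in IgE iGC to 49.7 in IgE PC, and Kat2b from 10.9 ± 1.73 to 9.72 ± 1.27 (SD), which is no rise. Lmo2, Hdac1, Lmo4 and Kat2b differed between the plasma cell groups as well, with Lmo2 at -1.13 and Hdac1 at -0.70 in IgE against IgG1, and Lmo4 at 0.92 and Kat2b at 0.56. Between the iGC groups edgeR called 0 of the 14, with 1 at an unadjusted p under 0.05, and DESeq2 and limma each called 0. Of all genes, edgeR called 3.87% in that comparison.

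Genes described as E protein targets in the B lineage did not move as a block. Of 27 genes 22 were tested. From iGC to PC, 10 rose and 11 fell in IgE (median -0.16, all genes -0.08), and 9 rose and 11 fell in IgG1 (median -0.11, all genes 0.01); under total-count scaling 7 rose and 12 fell in IgE. Of all genes, 64.1% were called in IgE and 59.1% in IgG1. Those that rose included Prdm1, Irf4 and Xbp1, the regulators of plasma cells, by 5.23, 4.49 and 3.43 in IgE. Those that fell included the complement receptor gene Cr2, by 3.32 in IgE (SE 0.15) and 2.32 in IgG1 (SE 0.14).

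Between IgE PC and IgG1 PC, 8 targets were higher and 11 lower (median -0.22, all genes -0.05), and 6 and 13 under total-count scaling, where 58.1% of all genes were called by edgeR with TMM scaling. The kinase gene Blk was lower in IgE at -1.03 on the log2 scale (SE 0.08; edgeR adjusted p = 4.81e-08). The chemokine receptor gene Cxcr4 was higher at 1.23 (SE 0.11). The iGC to PC change differed between isotypes for 16 of the 22, 6 towards higher and 10 towards lower in IgE, and 5 and 14 under total-count scaling; 42.9% of all genes differed. Between the iGC groups 3 of the 22 were called, where 3.87% of all genes were called. Vpreb3 at 0.46 and Prdm1 at 0.59 were higher in IgE, and Gfi1 was lower at -1.09.

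**Figure D5:**
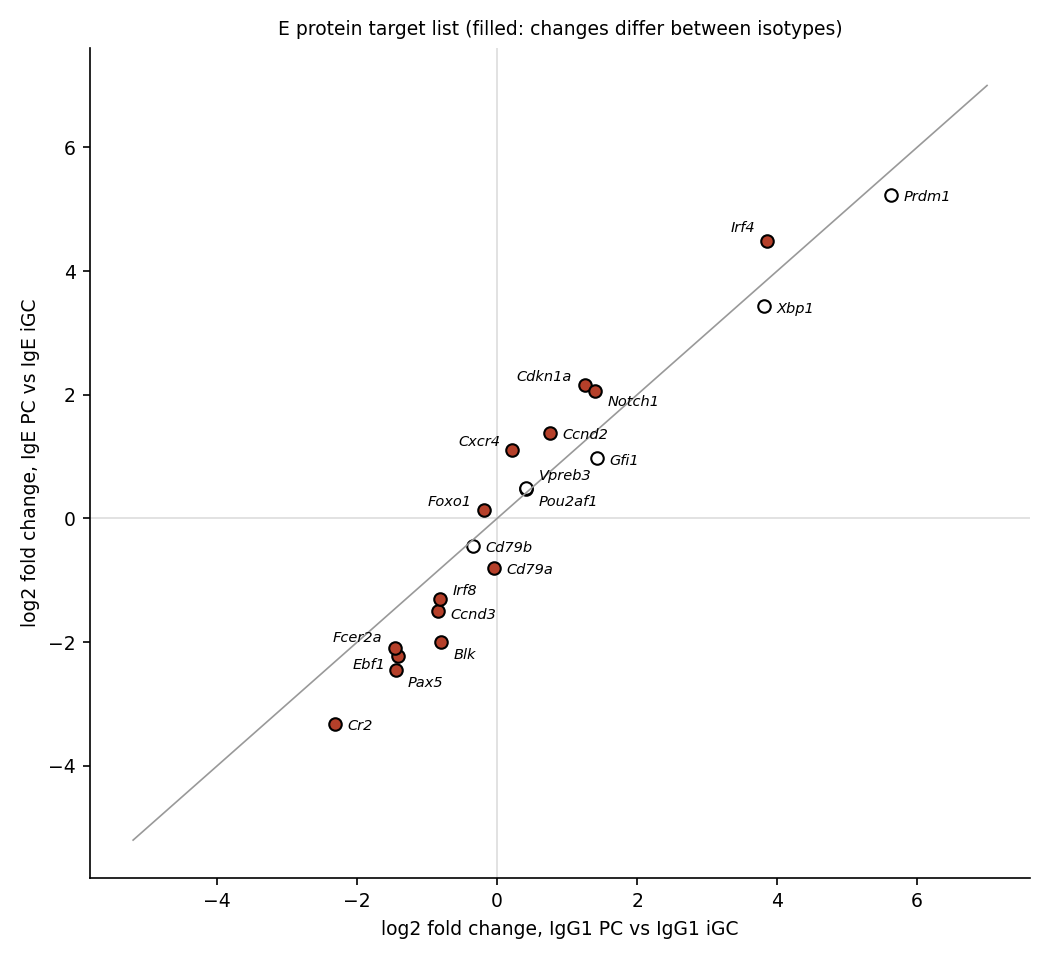
Log2 fold change from iGC to PC of 20 of the 22 tested genes of the E protein target list, IgG1 on the horizontal and IgE on the vertical axis, with the line of equal change; filled points are the 14 of these 20 whose change differed between isotypes at an adjusted p under 0.05. Blk lies furthest below the line and Prdm1, Irf4 and Xbp1 at the upper right.

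Signals known to act on Id genes were covered by 30 genes for receptors and SMAD proteins of the BMP and TGF-beta pathways and for EGR factors, 28 of them tested. Between the PC groups 9 were higher and 9 lower in IgE (median -0.27, all genes -0.05), and 7 and 14 under total-count scaling, where 58.1% of all genes were called by edgeR with TMM scaling. The EGR genes, which antigen receptor signals induce and which are known activators of Id3, gave Egr2 at -1.97 (SE 0.11; edgeR adjusted p = 2.44e-09) and Egr3 at -3.48 (SE 0.29; adjusted p = 2.09e-07). Egr2 was at 62.3 ± 8.2 CPM in IgG1 PC and 16.0 ± 2.18 in IgE PC, and Egr3 at 12.7 ± 3.93 and 1.14 ± 0.613 (SD, n = 3 each). Egr1 was not called (-0.42, SE 0.26; adjusted p = 0.19), with 306 ± 64.2 CPM in IgG1 PC and 229 ± 58.3 in IgE PC.

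Ligand genes of the pathway were lower in IgE PC as well, Tgfb1 at -0.64 (SE 0.06) and Tgfb3 at -2.66 (SE 0.19). Tgfb3 was scarce, at 2.14 ± 0.293 CPM in IgG1 PC and 0.336 ± 0.0674 in IgE PC, against 168 ± 6.34 and 108 ± 4.83 for Tgfb1 (SD). The iGC to PC change of Tgfb1 and Tgfb3 differed between isotypes by -0.63 and -2.65, and that of Egr2 and Egr3 by -1.94 and -2.55. Egr2 was at -1.31 from iGC to PC in IgE and 0.63 in IgG1, and Egr3 at -3.58 and -1.03. Against D6, 18 to 21 of the 28 genes were called lower and 3 to 6 higher in each sorted group. Their medians were -0.75 to -1.07, beside -0.04 to 0.01 over all genes. Of all genes, 68.4% to 76.4% were called in either direction, and the share called lower alone is not given here. Bmpr2, a BMP receptor, was at 16.3 ± 1.89 CPM in D6 and 2.29 ± 0.333 in IgE iGC, and Smad1, which carries BMP signals to Id1, at 19.5 ± 1.59 and 10.6 ± 0.584. The fibroblast markers fell over the same step, and their part in these changes was not tested.

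Enzymes that turn Id and E proteins over were tested in full, 12 of 12. Between the PC groups 5 were higher and 3 lower in IgE (median 0.14, all genes -0.05), and 1 and 6 under total-count scaling, where 58.1% of all genes were called by edgeR with TMM scaling. Usp1, a deubiquitinase that stabilises Id proteins, was higher by 0.61 (SE 0.10) and its cofactor Wdr48 by 0.28 (SE 0.06), and Skp2, a ubiquitin ligase subunit, was lower at -0.79 (SE 0.11; edgeR adjusted p = 1.69e-05). Cks1b, which works with Skp2, rose from iGC to PC by 1.37 in IgE and 1.24 in IgG1. Between the iGC groups edgeR called 0 of the 12, with 0 at an unadjusted p under 0.05, and DESeq2 and limma each called 0. Of all genes, edgeR called 3.87% in that comparison.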

How the data were processed

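The authors deposited 1 table of 51912 genes with, for each of 15 libraries, an expected count and a TPM value, both from RSEM per the file headers. Per the submitters' processing notes the tools were cutadapt 1.9.1, STAR 2.5.2a, RSEM 1.3.0 and DESeq2 1.12.3, with build GRCm38; the annotation is not given in the sources used here. Reads were single-end and strand-specific per the labels' protocols. The number of unmapped columns was 0. Symbols matched 51633 identifiers and 279 had none.

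The deposited expected counts were rounded, filtered with filterByExpr (minimum count 10, total 15; 15692 genes), scaled by TMM (factors 0.764 to 1.15) and fitted with 1 mean per group in edgeR 4.0.16 under R 4.3.3 (glmQLFit, robust, and glmQLFTest, two-sided; 10 residual degrees of freedom; dispersion 0.0109). Adjusted p-values are Benjamini-Hochberg over all 15692 genes. SEs are the fold change divided by the square root of F and are approximate. The difference between isotypes is (IgE PC - IgE iGC) - (IgG1 PC - IgG1 iGC) on the log2 scale. The code was tested on simulated data. Counting error only is covered where low counts are given, since reads carry no molecular identifiers.

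The members and the gene lists were chosen with earlier results of these data known. Named genes are the 6 members, Id4, the 3 genes closest to each member by Pearson r of log2 CPM (prior count 2; at least 5 TPM in a group; immunoglobulin segments and predicted genes left out), and up to 4 called genes per list and comparison by smallest p-value; not all of these are printed, and some genes are not reported here. Egr1, Bcl6, Fas, S1pr2 and Mybl1 lie outside that rule and were named after their values were seen. Sequences were read from GENCODE vM21 transcripts on GRCm38.

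Replicate numbers are shared between groups, and the labels do not say that they pair libraries; same-numbered libraries' deviations correlated at -0.195 to 0.0908, so no block was used. Alternatives were DESeq2 1.42.0, RLE and total-count scaling, immunoglobulin rows left out, no filter, only the groups compared, a replicate block, single libraries left out, and limma 3.58.1 on log2(TPM + 1).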

Additional observations from a re-analysis of the deposited data

Results flagged for a closer look

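For 4 of the 6 genes the change between the iGC and PC stages was not the same in the 2 isotypes by edgeR's test of the difference itself. Of all genes tested, 42.9% differed in that test. The difference, IgE minus IgG1 on the log2 scale, was -1.81 for Id3, which fell in both isotypes. It was -1.66 for Id2, whose change was called in IgE alone. It was -2.25 for Id1, which is at a few CPM or less. It was 0.56 for Tcf12, which rose in both isotypes by edgeR with TMM scaling and was at -0.06 in IgG1 under total-count scaling. Limma on log2(TPM + 1) put the Tcf12 difference at 0.32 and did not call it. In that fit Tcf12 changed by -0.03 in IgE and -0.36 in IgG1.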

How the results depend on the processing

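Of 792 fold changes of the 6 genes under alternatives, 685 kept direction and side of the threshold, 59 lost and 13 gained a call, and 35 changed sign; the cause was not tested. Id1 and Id2 rest on few counts in some libraries (from 11 and 14), which limits their precision. Under total-count scaling Tcf3 was -0.07 in IgE PC against IgG1 PC, -0.20 in IgE PC and -0.13 in IgG1 PC against D6. Under that scaling Tcf12 was -0.00 between the iGC groups, -0.06 from IgG1 iGC to IgG1 PC, and -0.04, -0.03 and -0.09 in IgE iGC, IgG1 iGC and IgG1 PC against D6. Also under it, Tcf4 was -0.20 and Id2 -0.07 from IgG1 iGC to IgG1 PC, and Id3 -0.18 in IgG1 PC against D6. Under limma on log2(TPM + 1) Tcf12 was -0.04 and Tcf4 -0.07 between the iGC groups, and Tcf12 was -0.03 from IgE iGC to IgE PC. From IgG1 iGC to IgG1 PC limma gave Tcf12 -0.36, Tcf4 -0.46 and Id2 -0.29. Against D6 limma gave Tcf12 -0.05, -0.01, -0.08 and -0.37 in IgE iGC, IgG1 iGC, IgE PC and IgG1 PC, Tcf3 -0.52 and -0.53 in IgE PC and IgG1 PC, and Id1 -0.26 and Id3 -0.60 in IgG1 PC. Tcf12 in IgG1 iGC against D6 was -0.00 with RLE size factors and with DESeq2. With single libraries left out, values that crossed 0 were Tcf12 (-0.01 to 0.03) and Tcf4 (-0.01 to 0.07) between the iGC groups, Tcf4 from IgG1 iGC to IgG1 PC (-0.05 to 0.06), Tcf12 in IgG1 iGC against D6 (-0.01 to 0.03), and Id1 (-0.17 to 0.93) and Id3 (-0.01 to 0.25) in IgG1 PC against D6.

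Between the iGC groups, members called numbered 1 without the filter, 1 with limma, and 0 to 2 with single libraries left out; all genes called numbered 1503 with only these groups fitted, 937 with DESeq2, and 329 to 417 with single libraries left out. For the difference of changes limma called 4345 genes and 3 members, with Tcf12 not called (0.32, limma adjusted p = 0.32). Without the filter edgeR called 3 members for that difference, with Id1 not called (-2.25, edgeR adjusted p = 0.0551). In IgG1 PC against D6, members called numbered 1 with only these groups, 5 with limma, and 2 to 5 with single libraries left out. With the replicate block 6533 genes were called for the difference of changes and 580 between the iGC groups. The block changed 1 call of the members, Id1 in IgG1 iGC against D6 (-1.23, adjusted p = 0.0578).

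The Id to E protein ratio, in the order D6, IgG1 iGC, IgE iGC, IgG1 PC and IgE PC, was 0.0471, 0.0807, 0.0797, 0.0446 and 0.012 from CPM. It was 0.238, 0.426, 0.476, 0.208 and 0.0649 without Tcf3, 0.149, 0.246, 0.244, 0.132 and 0.041 without Tcf12, and 0.216, 0.336, 0.32, 0.183 and 0.0474 without Tcf4. Without Id3 it was 0.0353, 0.0145, 0.0109, 0.0251 and 0.00559, with IgG1 PC above both iGC groups. It was 0.118 in D6 and 0.0983 in IgG1 PC without Id1, and 0.104 in D6 without Id2. IgE PC was lowest in each of these.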
